A study of Mus musculus with 19 samples.

Results

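The exome of A223, a mouse tumour line labelled squamous cell carcinoma, carried 15980 called variants on chromosomes 14 and 19, out of 209790 exome calls in all. They were selected by position and by having any exome genotype, 9113 on chromosome 14 and 6867 on chromosome 19. A genotype of 0/1 means that reads of both the reference base and another base were called, and 1/1 means that the non-reference base alone was called. Of these calls 12157 were 0/1, 3820 were 1/1 and 3 carried a pair of different non-reference alleles. The exome genotype and its position chose these calls, so the shares of 0/1 below are a description with no test.

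A223 is given in the labels as C57BL/6-derived, grown in vitro, with no treatment or other allele named. DNA from the cultured cells was captured with an exon chip and read in 1 library, and polyA RNA was read in 1 library. The rest of the series holds single-cell libraries of T cells from tumours and spleens, which were not used here. With 1 library of each kind there were no replicates, and every interval below is an exact Clopper-Pearson 95% interval that covers counting error only. Neighbouring calls share a chromosome copy and reads, so they are not independent.

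An inbred mouse carries the same allele on both copies of nearly every locus, so a cross between inbred lines shows as runs of heterozygous positions where the parental chromosomes differ, separated by stretches with few differences. A stretch of homozygous non-reference calls can mean that the copies that were read carry the same non-reference haplotype. The exome calls alone do not show this, because RNA read many such positions as heterozygous, as given below. Where a heterozygous exonic position is transcribed, RNA reads can carry both alleles, 1 allele, or too few variant reads to be called. Exome capture reads coding exons most deeply, and introns and intergenic DNA only where fragments reach beyond the targets or are carried along.

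The labelled cell type was checked at exonic exome calls of marker genes. Of the 11 keratinocyte or squamous markers, 4 had such a call, and 1 of their 33 positions had any RNA read, at a depth of 3 reads. The adhesion genes Cdh1, with 15 positions, and Dsp, with 9, were at 0 reads throughout. Across all calls of the table, 49.8% of exonic exome calls had at least 1 RNA read. The fibroblast genes Col1a1, Col1a2 and Pdgfra had no exonic exome call, and their RNA-only calls reached 707, 641 and 299 reads. RNA-only calls exist only where RNA was read, so they are not the same measure as RNA depth at exome calls. Of the keratinocyte and leukocyte markers, only Perp had exonic RNA-only calls, at up to 4 reads. Of the 5 leukocyte markers, 2 had 1 exonic exome call each, both at 0 reads. Keratins Krt5, Krt14, Krt6a and Krt17 had no exonic call and therefore no value. The markers that could be read were thus at or near 0 for the labelled cell type.

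Sequences immediately upstream of 4 genes show what the calls look like on the DNA. They were taken from RefSeq for the 250 bases before the annotated start, build GRCm38.p6, 5′ to 3′ on the gene's strand, with capitals at the positions of single-base exome calls. No build is named for the table. All 237 single-base positions that fell in RefSeq promoter windows of these chromosomes had the same reference base in that build, and coordinates are printed on it. Parp2, Ch25h and Ifit1 show clusters of 0/1 calls, and Gm15217 shows 1/1 calls from the longest homozygous stretch described below.
Parp2 (chr14:50807666-50807915, plus strand): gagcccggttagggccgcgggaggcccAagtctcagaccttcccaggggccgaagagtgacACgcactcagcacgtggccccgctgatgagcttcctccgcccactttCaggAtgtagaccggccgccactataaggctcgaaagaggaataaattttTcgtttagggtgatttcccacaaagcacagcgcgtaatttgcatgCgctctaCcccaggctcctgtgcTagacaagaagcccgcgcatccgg
Ch25h (chr19:34475149-34475398, minus strand): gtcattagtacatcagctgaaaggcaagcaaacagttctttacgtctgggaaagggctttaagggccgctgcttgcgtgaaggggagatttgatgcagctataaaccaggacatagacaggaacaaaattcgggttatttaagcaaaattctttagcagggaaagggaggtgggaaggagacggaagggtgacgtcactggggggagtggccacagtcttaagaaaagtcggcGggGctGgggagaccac
Ifit1 (chr19:34640639-34640888, plus strand): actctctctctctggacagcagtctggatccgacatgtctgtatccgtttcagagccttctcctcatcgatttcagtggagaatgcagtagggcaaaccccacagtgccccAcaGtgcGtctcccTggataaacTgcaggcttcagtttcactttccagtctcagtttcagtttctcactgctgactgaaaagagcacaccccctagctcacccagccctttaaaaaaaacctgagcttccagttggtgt
Gm15217 (chr14:46379274-46379523, plus strand): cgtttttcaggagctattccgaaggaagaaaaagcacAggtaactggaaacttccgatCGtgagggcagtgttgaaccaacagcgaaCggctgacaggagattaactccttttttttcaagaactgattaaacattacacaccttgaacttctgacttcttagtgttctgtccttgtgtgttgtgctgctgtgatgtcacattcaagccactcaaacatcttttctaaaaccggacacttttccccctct

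Parp2, which encodes a poly(ADP-ribose) polymerase of DNA repair, had 9 promoter calls, all 0/1. The 3 farthest from its start, A28C, A62G and C63A counted from the first printed base, lay under 60487, 38687 and 38666 RNA reads and had no RNA call. The other 6 Parp2 positions had 0 RNA reads. Rpph1, the RNA subunit of RNase P, is transcribed away from Parp2 out of the same promoter in mammals. Ch25h encodes cholesterol 25-hydroxylase, an interferon-induced enzyme. Its 3 calls G234A, G237A and G240C were 0/1 in DNA and also 0/1 in RNA, at 4 reads each. Ifit1 encodes an interferon-induced protein that binds foreign RNA, and its 5 calls A112C, G115C, G119T, T126A and T135C had 0 RNA reads. The Gm15217 window held A38G, C59T, G60A and C88T, all 1/1, with at most 1 RNA read. At least 1 call of 0/1 lay in 65 of 1092 promoter windows on chromosome 14 (5.95%) and in 26 of 863 on chromosome 19 (3.01%).

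Most calls on both chromosomes were heterozygous. The share of 0/1 was 73.9% on chromosome 14 (6735 of 9113, interval 73 to 74.8%) and 79% on chromosome 19 (5422 of 6867, interval 78 to 79.9%). Over the whole table it was 40.1%, and over the other 17 autosomes together 37%, with single chromosomes from 6.72% to 65.5% and a median of 40.3%. Both chromosomes therefore lay above the highest of the other autosomes.

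Coding sequence was almost wholly heterozygous. On chromosome 14, 997 of 1012 coding calls were 0/1 (98.5%), and on chromosome 19, 762 of 765 (99.6%). Of all coding calls in the table, 62.8% were 0/1, and on the other autosomes 59.5%, from 2.1% to 92.7% by chromosome. Missense calls were 0/1 at 392 of 395 positions on chromosome 14 and at 247 of 247 on chromosome 19. All 40 truncating calls, that is frameshift, nonsense and splice-site calls, were 0/1.

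Homozygous calls were concentrated outside exons. Intergenic calls were 0/1 in 48.8% of cases on chromosome 14 and 36.3% on chromosome 19, against 16.5% on the other autosomes. Intronic calls were 0/1 in 76.3% and 83%, against 37.2%. The order from intergenic to coding was thus seen on the other autosomes as well, at lower levels. The exome depth of each call was not used here.

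**Figure D1:**
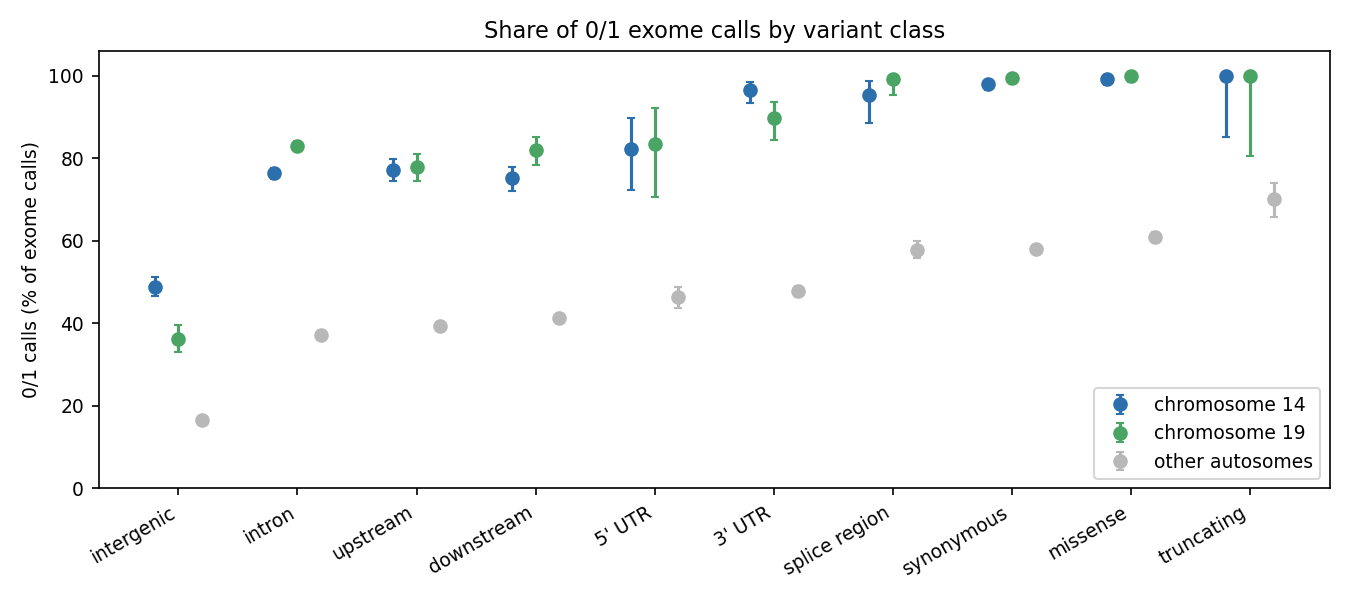
Percent of exome calls that were 0/1 (vertical axis) by annotated variant class (horizontal axis) for chromosomes 14 and 19 and the other autosomes together. Points are shares, bars are exact 95% binomial intervals; in every class shown, both chromosomes lie above the other autosomes, and synonymous and missense calls lie at 98% or above.

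The calls were unevenly spread along the chromosomes. On chromosome 14 the proximal 90 Mb held 9078 calls, 100.9 per Mb, and the distal 33.3 Mb held 35, or 1.05 per Mb. Calls were not dense up to 90 Mb, because the 5 Mb windows from 70 to 90 Mb held 5, 56, 258 and 67 in turn. In the proximal span 377 of 783 genes had a call (48.1%), and in the distal span 6 of 66 (9.09%). The widest stretch without a call ran from 88163815 to 94115360, 5.95 Mb. The densest 5 Mb window, 50 to 55 Mb, held 2572 calls, of which 2268 were 0/1 (88.2%), and 446 of its 447 coding calls were 0/1.

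Chromosome 19 alternated between sparse and dense spans. Its first 15 Mb held 74 calls, with a call in 20 of 358 genes (5.59%). The span from 15 to 20 Mb held 629 calls, with a call in 13 of 16 genes. The span from 20 to 30 Mb fell back to 54 calls and contained a gap of 2.92 Mb, from 25944970 to 28862834. From 30 Mb to the last call there were 6110 calls, 195.1 per Mb, and 207 of 274 genes had a call (75.5%).

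Windows of 5 Mb with at least 10 calls were described as mostly 0/1 at a share of 80% or more and as mostly 1/1 at 20% or less. Chromosome 14 had 17 such windows, 5 of them mostly 0/1, 12 mixed and 0 mostly 1/1. Chromosome 19 had 13, of which 4 were mostly 0/1, 8 mixed and 1 mostly 1/1. That window was the first 5 Mb of chromosome 19, with 2 of 16 calls 0/1. On the other autosomes 52 of 391 windows were mostly 0/1 (13.3%) and 105 were mostly 1/1 (26.9%). Among dense windows of chromosome 14, the lowest shares were 33.3% at 80 to 85 Mb, of 258 calls, and 50.7% at 45 to 50 Mb, of 1367 calls.

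**Figure D2:**
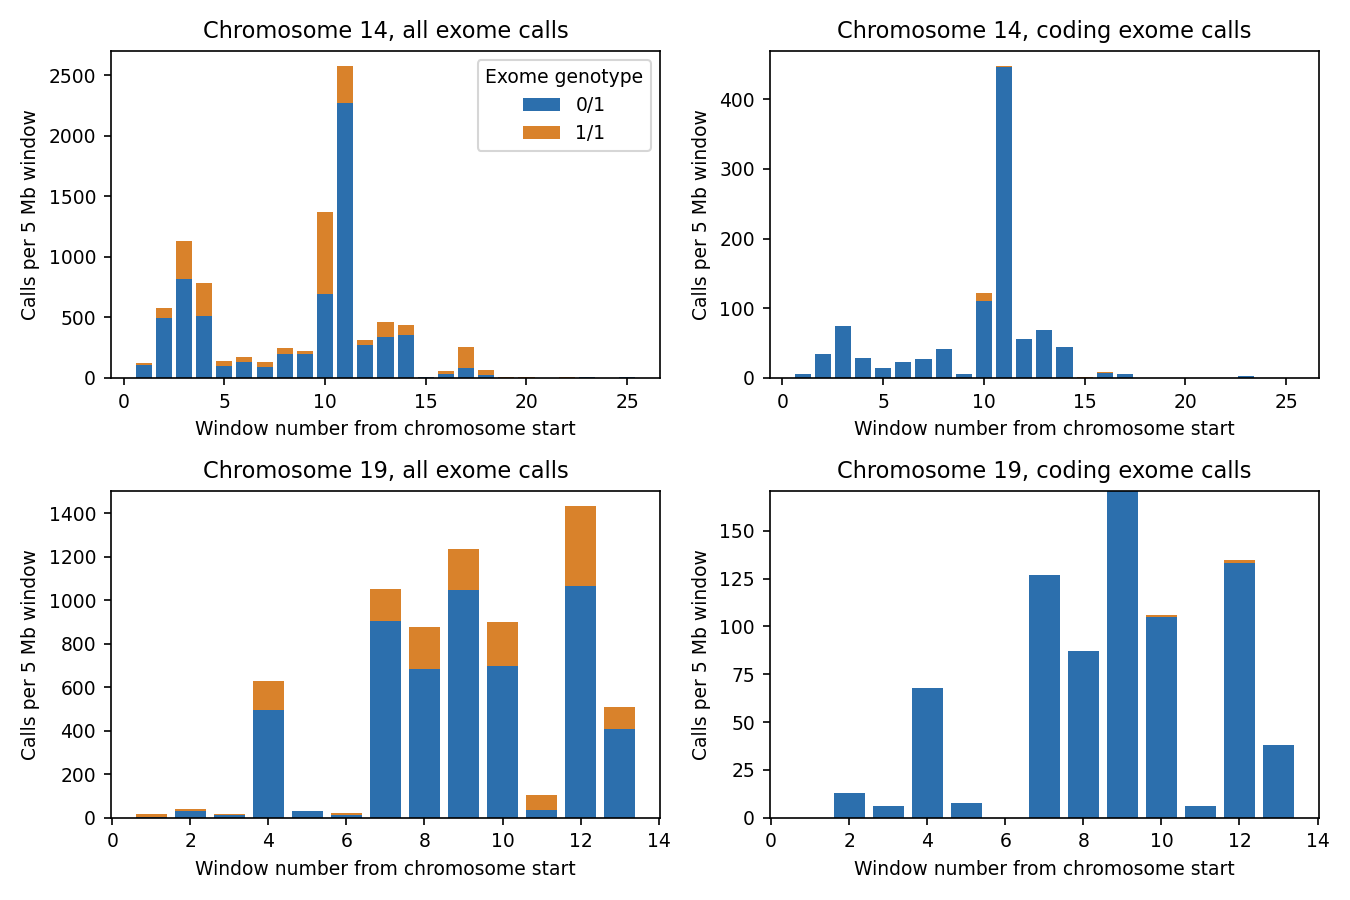
Exome calls per 5 Mb window (vertical axis) against window number from the chromosome start (horizontal axis), for all calls and for coding calls, with 0/1 and 1/1 calls stacked. Window 11 of chromosome 14 is the tallest, with 2572 calls, and 1/1 calls are nearly absent from the coding panels except in window 10 of chromosome 14.

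RNA read the dense and sparse windows differently. In the 23 windows with 100 or more exome calls, 709 of 1048 heterozygous calls at 20 or more RNA reads were also called 0/1 in RNA (67.7%, interval 64.7 to 70.5%). In the 15 windows with fewer calls the count was 4 of 45 (8.89%, interval 2.48 to 21.2%), from 10 genes or intervals. Of these 45, 12 were in Ints5, 9 between Gm26405 and Gm9274, 6 in Trpm3 and 5 in Tpm3-rs7, none 0/1 in RNA. The low share thus rests on few gene models, and the genotypes of Ints5 and Tpm3-rs7 are given as uncertain below. Pooled over windows, positions called in RNA but not in the exome followed the same division. At 20 or more reads, 91.7% of these RNA-only calls were 0/1 in the dense windows of chromosome 19 and 43.6% in its other windows. On chromosome 14 the values were 68.2% and 38.1%, over the other autosomes together 48%, and across all chromosomes 49%. Single windows departed from these pooled shares. The dense window at 15 to 20 Mb of chromosome 14 had 27 of 182 at 0/1 (14.8%). The sparse window at 20 to 25 Mb of chromosome 19 had 19 of 29 (65.5%).

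Runs of consecutive 1/1 calls were mostly short. A block was defined as 20 or more in a row, and chromosome 14 had 9 blocks holding 543 of its 2377 homozygous calls (22.8%). Chromosome 19 had 6, holding 168 of 1443 (11.6%). The median run length was 2 calls on each chromosome. On chromosome 19 the blocks were intergenic, intronic or at gene ends. They lay between Prune2 and Gcnt1 (17251571 to 17328885), between Gm5248 and A830019P07Rik as 2 adjoining blocks (35167730 to 35807134), around Tcf7l2 (55734298 to 56104312), and next to Pdzd8 and 2700089I24Rik as 2 blocks (59350961 to 59725245). None held a coding call.

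The distance from a block of chromosome 19 to the next 0/1 call ranged from 0.016 to 130.5 kb, so block ends were placed with unequal precision. To the right of the Prune2 to Gcnt1 block the next 0/1 call lay at 17329019 in the 3′ untranslated region of Gcnt1, a glycosyltransferase of mucin-type glycans. Left of the Tcf7l2 block it lay 110.2 kb away, at 55624133 in the 3′ untranslated region of Vti1a, a vesicle SNARE. Left of the Pdzd8 block it was a synonymous call at 59344814. Outside these runs the homozygous calls were scattered among heterozygous ones.

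On chromosome 14 all but 3 blocks were likewise without coding calls. A block of 35 calls lay inside an intron of Ptprg, a receptor tyrosine phosphatase, from 11564097 to 11707182, between 0/1 calls at 11553973 and 11721011. Another 3 lay between Rarb and Thrb or reached into Thrb, genes of a retinoic acid and a thyroid hormone receptor, from 16721866 to 17751847. A block of 20 intergenic calls lay from 81839717 to 82087480. The last block without coding calls, of 21 calls, lay at Samd4, an RNA-binding protein gene, from 46862488 to 47016032.

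The remaining 3 blocks of chromosome 14 adjoined each other, with 62, 217 and 117 calls. They spanned 45601512 to 46689841, 1.09 Mb, from Gm15601 and Ddhd1 through the pseudogene Gm1821 and Bmp4 to the interval between Rubie and Cdkn3. Ddhd1 encodes a phospholipase, and Bmp4 a secreted growth factor of the TGF-beta family. Of 401 calls in the span 396 were 1/1 and 5 were 0/1, 1 in an intron of Ddhd1 and 4 in Gm1821. All 12 coding calls in it were 1/1, 7 in Ddhd1, 4 in Bmp4 and 1 in Gm15217. They made up 12 of the 15 homozygous coding calls of chromosome 14.

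RNA calls at the homozygous exome positions of the span were homozygous too. Bmp4 was read 75, 141, 134, 121 and 64 times at its 5 exonic calls, and each was 1/1 in RNA. Ddhd1 was read 43, 43, 21, 18, 20, 18 and 14 times at its 7 coding calls, and each was 1/1. In all, 69 of the 69 homozygous exome calls with an RNA genotype were 1/1, and 17 of 17 at 20 or more reads, 5 in Bmp4, 4 in Ddhd1 and 8 in the processed pseudogene Gm6580. Another 9 such calls at 20 or more reads, 8 in Gm6580 and 1 in Gm1821, had no RNA call. RNA-only calls of the span were 1/1 at 389 of 403 positions and 0/1 at 13. At 20 or more reads, 28 of 30 were 1/1 and 1 was 0/1. The 4 heterozygous exome calls in Gm1821 lay under 1267 to 1699 reads and had no RNA call. Processed pseudogenes resemble the transcript of a parent gene, so the genotypes in Gm6580 and Gm1821 are both uncertain, and the 9 deep calls of Bmp4 and Ddhd1 do not rest on them.

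To the right of the span the genotypes changed in both libraries. In the next 1 Mb, 228 of 340 exome calls were 0/1 (67.1%). There, 26 of 26 homozygous exome calls with an RNA genotype were 0/1 in RNA, and 360 of 361 RNA-only calls at 20 or more reads were 0/1. The Samd4 block falls in this stretch, and its 10 calls with an RNA genotype were all 0/1 in RNA. To the left the change was less marked. The preceding 1 Mb had 38 exome calls, 16 of them 0/1 (42.1%), and its 231 RNA-only calls at any depth were 191 1/1 and 40 0/1. At 20 or more reads, 14 of its 21 RNA-only calls were 1/1 and 7 were 0/1. Its 6 homozygous exome calls with an RNA genotype were all 1/1 in RNA. The left end of the homozygous stretch was therefore known less closely than the right end, which fell between 46689841 and the 0/1 call at 46695931.

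**Figure D3:**
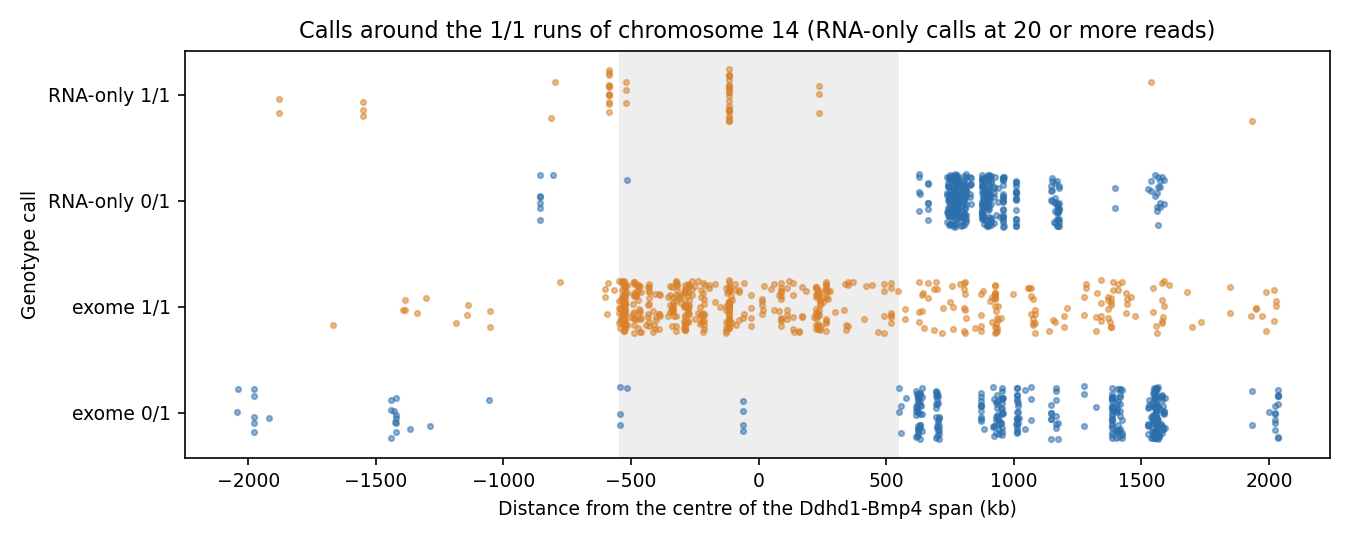
Genotype calls (vertical axis, points spread within each row) against distance in kb from the centre of the Ddhd1 to Bmp4 span (horizontal axis; shaded area is the 1.09 Mb span). Orange points are 1/1 and blue points 0/1; within the shading 396 of 401 exome calls are 1/1, and to its right RNA-only calls at 20 or more reads are 0/1 at 360 of 361 positions in the first 1 Mb.

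Outside that span, homozygous exome calls were mostly read as heterozygous in RNA. Among those with an RNA genotype at 20 or more reads, 52 of 53 were 0/1 in RNA (98.1%, interval 89.9 to 100%), 36 of 36 on chromosome 19 and 16 of 17 on chromosome 14. With the span included it was 52 of 70 (74.3%). Over the whole table the share was 10.3%, and over the other autosomes 439 of 4736 (9.27%). The exception was a synonymous call at 75727727 in Cog3, a Golgi tethering subunit, 1/1 at 32 reads. Such calls at lower RNA depth gave 84 of 91 at 10 to 19 reads, 81 of 98 at 5 to 9 and 24 of 81 at 1 to 4. On the other autosomes the share was 2.03% at 1 to 4 reads and 12.5% at 10 to 19. The Gcnt1 block had 2 such calls, both 0/1 in RNA. The Ptprg block had 5, all 1/1 and all under 20 reads.

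Heterozygous exome calls were read in RNA at 20 or more reads at 1093 positions. On chromosome 14, 303 of 547 were 0/1 in RNA (55.4%, interval 51.1 to 59.6%), 40 were 1/1 (7.31%) and 204 had no RNA call (37.3%). On chromosome 19, 410 of 546 were 0/1 (75.1%, interval 71.2 to 78.7%), 25 were 1/1 (4.58%) and 111 had no call (20.3%). Over the whole table the shares were 54.7%, 10.7% and 34.6%. The share on chromosome 14 was therefore near that background, and on chromosome 19 above it. A missing RNA call covers both positions read as reference alone and positions that were not called, which the table does not separate.

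Positions in protein-coding genes and elsewhere differed. In models annotated as protein-coding, 72.7% of 931 calls were 0/1 in RNA, against 65.2% on the other autosomes. In all other models and intergenic intervals it was 22.2% of 162 calls, and 63% had no RNA call. On the other autosomes, calls of all models together gave 54.2%, below the 65.2% of protein-coding models, so the same order held there. The share of the remaining models alone was not counted on the other autosomes. Protein-coding calls gave 64.9% on chromosome 14 and 80.4% on chromosome 19. Among calls that did have an RNA genotype, 88.3% on chromosome 14 and 94.3% on chromosome 19 were 0/1, against 83.7% on the other autosomes. Just inside the depth limit, at 20 to 24 reads, 56.4% and 76.7% were 0/1 in RNA. Just outside it, at 15 to 19 reads, the values were 70.5% and 85.9%.

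**Figure D4:**
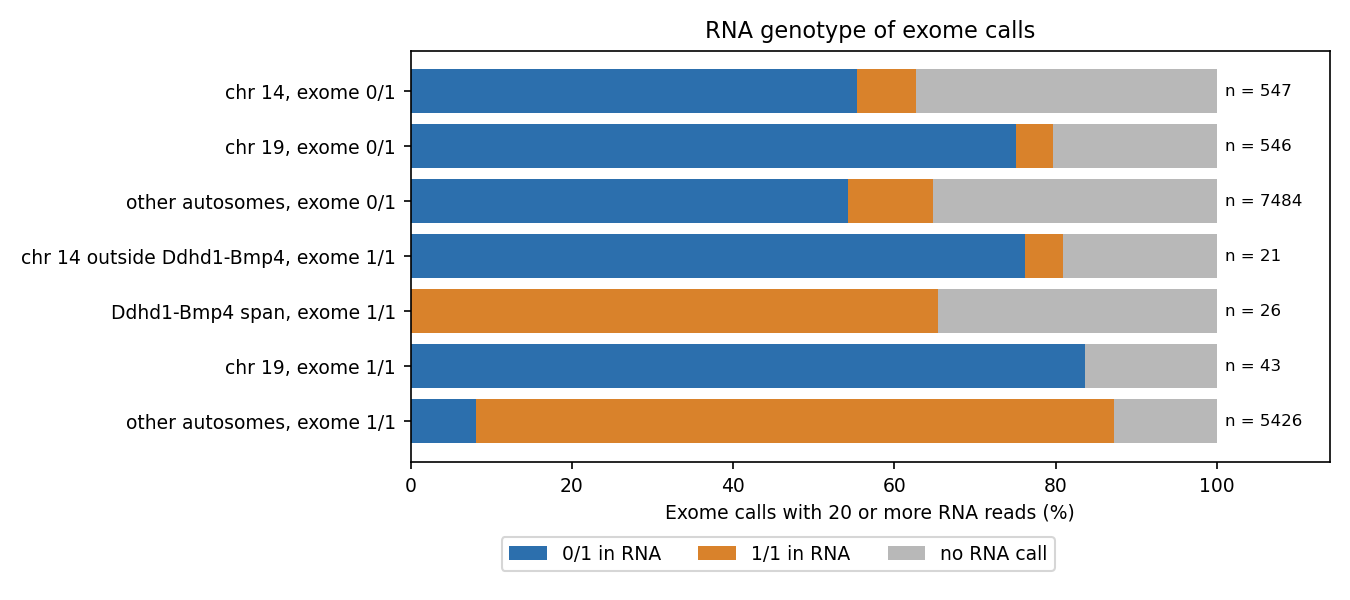
RNA genotype, as percent of exome calls with 20 or more RNA reads (horizontal axis), by exome genotype and region (vertical axis, with the number of calls). Calls of 1/1 in the exome are 0/1 in RNA for 36 of 43 on chromosome 19 and for 0 of 26 in the Ddhd1 to Bmp4 span, where 17 are 1/1 in RNA.

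By variant class, RNA called 289 of 371 heterozygous synonymous positions 0/1 (77.9%), 124 of 175 missense positions (70.9%) and 112 of 129 positions in 3′ untranslated regions (86.8%). Truncating calls differed from these, with 1 of 13 called 0/1 in RNA, 1 called 1/1 and 11 without a call. Of those 13, 5 were in AY358078 and 2 each in Smc5 and Gm10053, and all 13 came from 7 genes. Calls of a gene share RNA molecules and are not independent. RNA genotypes by class were not counted on the other autosomes, so these shares have no background beside them.

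Among genes with at least 3 heterozygous calls at 20 or more reads, 95 were protein-coding. In 34 of them every such call was 0/1 in RNA, in 49 some were, and in 12 none was. The other 21 gene models or intervals divided into 4, 3 and 14. These gene counts were not made for the other autosomes, so no background is given for them. Myof, a membrane-repair protein, was 0/1 in RNA at 18 of 18 positions, read 20 to 646 times. Gcnt1 and Sh3pxd2a, a podosome scaffold, were each 0/1 at 19 of 20. Kif20b, a mitotic kinesin, was 0/1 at 16 of 17 and the translation factor subunit Eif3a at 13 of 15. Acta2, smooth muscle actin, was 0/1 at 7 of 7. Prune2 had the most such positions of chromosome 19, 47 of 48 being 0/1 in RNA. In these genes RNA of both alleles was read along the transcript.

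Other expressed genes had a lower share. Mmp14, a membrane-bound collagenase, was 0/1 in RNA at 13 of 19 positions and had no call at 6. Slc4a7, a bicarbonate transporter, was 0/1 at 18 of 24 and Il3ra, a cytokine receptor subunit, at 6 of 12. Parp2 was 0/1 at 7 of 12, but its 5 positions without a call included the upstream ones at 60487, 38687 and 38666 reads. The Parp2 share is therefore not a value for its transcript alone. Nr1d2, a nuclear receptor of the circadian clock, was 0/1 at 3 of 10 and had no call at 7, read 28 to 166 times. Vps13a, a lipid-transfer protein gene with 188 heterozygous calls, the most of either chromosome, was 0/1 at 17 of 24 and had no call at 7.

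A set of genes had heterozygous exome calls at or above the RNA depth limit, and none of those calls was heterozygous in RNA. Calls below that limit did not enter the choice. Many of the chosen calls had no RNA call, which does not separate reference alone from not called. Ints5, a subunit of the Integrator complex that processes small nuclear RNA, had 13 coding calls, all 0/1 and 11 of them protein-changing. RNA read 12 of them 26 to 83 times and called none. These 13 calls stood alone, with the nearest other exome calls 381.8 and 709.6 kb away. Psat1, an enzyme of serine synthesis, had 3 such calls, read 776 to 1052 times with no RNA call. Psmb5, a catalytic proteasome subunit, had 5, read 81 to 151 times with no RNA call. Tpm3-rs7, a tropomyosin-related sequence, had 5 calls, of which 4 were 1/1 in RNA and 1 had no call, and its nearest neighbours were 1434.5 and 1380.4 kb away.

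Several of the genes richest in 0/1 calls belonged to that set. Gm7247, with 163 heterozygous calls, was 0/1 in RNA at 0 of 23 positions, 10 being 1/1. AY358078, with 103, was 0/1 at 0 of 31, with 5 at 1/1. Lipo1, a lipase-like gene with 140, was 1/1 in RNA at 6 of 6 and was the only gene with 3 or more such calls all homozygous in RNA. The miRNA model Gm23061 had 22 positions under 37 to 18027 reads and no RNA call. How reads that fit similar gene copies were placed is not stated for the table, so the genotypes of these 4 models are given as uncertain. The same caution holds for the isolated calls of Ints5 and Tpm3-rs7. The remaining genes with the most calls were Nek10 (141), Cadps (131) and Ktn1 (103) on chromosome 14 and Kif20b (131), Col17a1 (119) and Cyp2c37 (113) on chromosome 19. Nek10, Col17a1 and Cyp2c37 had no heterozygous position at 20 reads. Ktn1, encoding the kinesin-binding protein kinectin, was 0/1 in RNA at 9 of 12.

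The most-read protein-changing 0/1 calls were examined next, in 10 genes on each chromosome. Amino acid changes are given as reference residue, position and variant residue. On chromosome 14, 6 missense calls were 0/1 in RNA. They were I554V in the receptor-related gene Lrp10 (167 reads), A252V in topoisomerase gene Top2b (126), D892G in Ktn1 (122), A139T in the lipase Abhd4 (113), E548D in the phosphoinositide phosphatase Mtmr6 (110) and A871V in the exchange factor Arhgef40 (103). K43E in Tpm3-rs7, whose genotypes are uncertain, was 1/1 at 500 reads. K403E in AY358078 (208 reads), A49G in Dock5 (152 reads) and a frameshift at codon 291 of Nr1d2 (166 reads) had no RNA call.

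On chromosome 19, 7 were 0/1 in RNA. T2183A in Prune2 was read 857 times, G238A in Gcnt1 189, A983V in Atrnl1 176, P64R in Lzts2 172, L94P in the aspartate aminotransferase Got1 169, I92T in Myof 133 and T202P in Fam178a 131 times. No RNA call was made for F748V in the chromatin remodeller Hells at 128 reads, nor for frameshifts at codon 291 of Psat1 (776 reads) and codon 60 of Gm10053 (372 reads).

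The 40 truncating calls fell in 24 genes. Vps13a carried the only truncating call at 20 or more reads that was 0/1 in RNA, a start-codon frameshift read 55 times. A call at codon 1010 of Smc5, a subunit of a chromosome-maintenance complex, was 1/1 at 102 reads. It was annotated as a frameshift that also covers a splice acceptor, a splice donor and intron sequence. All 9 exome calls of Smc5 were 0/1 and stood apart, with the nearest other calls 230.5 and 1131.6 kb away. The genotypes of Smc5 are therefore given as uncertain, as for Ints5 and Tpm3-rs7. The other truncating calls of Smc5 were splice-acceptor calls at 6, 63 and 14 reads, without an RNA call. A splice-acceptor call in Atrnl1 was 0/1 at 7 reads and one in Kif20b 1/1 at 4 reads. Gfra1, a coreceptor for GDNF, had a splice-donor call without an RNA call at 33 reads. The olfactory receptor gene Olfr1424 had 3 adjacent truncating calls with 0 reads. The others at 2 reads or fewer were in Gm21560, Gm3636, Rpl21-ps4, Sntn, Asb14, Il17rd, 4930474N05Rik, Gm8267, Gm7247, AY358078, Gm16290, Gm5800, Pcsk5, Abcc2 and Cacul1.

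Genes with calls were counted in lists of known roles, beside all 1556 protein-coding RefSeq symbols of these chromosomes. Of those 1556, 613 had an exome call (39.4%), 560 a 0/1 call (36%) and 231 a protein-changing 0/1 call (14.8%). Of 25 tumour suppressor and driver genes, 11 had an exome call, 9 a 0/1 call and 2 a protein-changing one. Kat6b, a histone acetyltransferase gene, had E1033Q and V1418I, both 0/1 in the exome and in RNA at 12 and 60 reads. Ptprg had a start-codon call, 0/1, with 0 RNA reads. No exome call was listed in Rb1, Bap1, Pbrm1, Lats2, Men1 or Smarca2. A gene without a call has no informative position, which says nothing about its copy number.

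Of 26 immune and interferon genes on these chromosomes, 10 had a 0/1 call and 6 had a protein-changing one. For calls of any kind the driver and immune lists were thus near the share over all genes. Ripk3, the kinase of necroptosis, had D198E, D198N and N136D, all 0/1 in RNA at 58, 58 and 63 reads, and D198E and D198N lie in the same codon. Chuk, the IKK-alpha kinase gene, had Y669S, 0/1 in RNA at 43 reads. Ifit3 had S89A at 26 reads and Ifit1 had D69E at 19 reads, both 0/1 in RNA. Fas, the death receptor, had T77I and P181L, at 0 and 1 RNA reads. Il17rd, a receptor of the IL-17 family, had L715F at 13 reads without an RNA call. Of the 11 epithelial genes on these chromosomes, 5 had a call, and a protein-changing one was found in Scd4 among others.

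Gene families lie in clusters, and their counts are given beside 43.9% of all genes with a call on chromosome 14 and 33.9% on chromosome 19. On chromosome 14, 37 of 39 olfactory receptor genes had calls, 320 of 341 being 0/1, with 185 of 185 coding calls 0/1, where 98.5% of all coding calls of the chromosome were. On chromosome 19, 3 of 63 olfactory receptor genes had a call, 6 calls in all. The Cyp2c family of drug- and fatty-acid-metabolising enzymes had calls in 13 of 15 RefSeq genes, 359 of 375 calls under Cyp2c symbols being 0/1 and 72 of 72 coding calls 0/1, against 99.6% of all coding calls of the chromosome. Ribonuclease genes of chromosome 14 had calls in 11 of 11, 98 of 104 being 0/1. Genes of the Ms4a family had calls in 3 of 21, 1 of 3 being 0/1, and the Slc22a transporter genes of chromosome 19 in 1 of 10. Smaller families of chromosome 14 had calls in 3 of 5 Defb, 3 of 5 Ear, 4 of 4 Ang, 1 of 4 Pcdh and 1 of 2 Vmn2r genes. On chromosome 19, calls lay in 7 of 9 Lip, 3 of 4 Scd and 2 of 6 Ifit genes. Calls at 20 or more RNA reads were few in these families, at most 14 in Lip and 7 in Pcdh. RNA genotypes were therefore not counted by family, and those of single members such as Lipo1, Ifit1 and Ifit3 are given above.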

How the data were processed

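A223 exome DNA and polyA RNA were analysed, 1 library each. The authors deposited 1 table of 564674 positions with an exome genotype, an RNA genotype and an RNA read count (depth), in 2 identical copies of which 1 was used. The reads were processed with BWA and GATK, per the submitters' processing notes. Versions, genome build and variant filters are not given in the sources used here. The deposited read counts are unnormalized, and 34 positions with several depths, none of them on chromosomes 14 or 19, had their depth left out. Exome read depth was not used here.

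Exome calls on chromosomes 14 and 19 were counted in Python 3.11.15 with pandas 2.3.3, and intervals came from SciPy 1.17.1. Windows were 5 Mb, blocks 20 or more consecutive 1/1 calls, and the RNA depth limit 20 reads. Of the 15980 calls, 5585 had an RNA read and 1183 had 20 or more. Counting steps were tested on simulated data. Named genes were, per chromosome, the 5 with the most 0/1 calls and the 10 with the most-read protein-changing 0/1 call, those whose deep 0/1 calls were all homozygous in RNA, those at block ends, truncating calls, and driver and immune list members with a protein-changing call. Genes named for their counts of RNA genotypes, promoters, families and Cog3 were chosen after their values were seen. Members and lists were chosen with earlier results of these data known. Alternatives covered variant class, window size, block length, RNA depth and gene type. Values of a few genes are not reported here.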

Additional observations from a re-analysis of the deposited data

How the results depend on the processing

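No paired analysis was possible because there was 1 library of each kind and nothing was compared between replicates. Intervals cover counting error, and the spread between cultures is unknown. The share of 0/1 was 98.5%, 75.8% and 79.5% on chromosome 14 with coding, single-base and RNA-genotyped calls, and 99.6% and 86.6% on chromosome 19 with coding and RNA-genotyped calls. Insertions and deletions alone, not among these alternatives, gave 62.8% and 74.7%.

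Counts of windows followed the window definition. Mostly 0/1 windows numbered 9 of 30 (30%), 24 of 59 (40.7%) with 2 Mb and 5 of 17 (29.4%) with 10 Mb windows. The 1 mostly 1/1 window became 4 with 2 Mb windows, 2 with at least 5 calls, and 0 with 10 Mb windows, windows shifted by 2.5 Mb or at least 20 calls. Blocks numbered 9 and 6 on chromosomes 14 and 19, but 46 and 28 for runs of 10 or more calls and 3 and 0 for runs of 50 or more. With single-base calls alone chromosome 14 had 5.

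The percent of heterozygous calls that were 0/1 in RNA on chromosome 14, 55.4%, was 49.4% and 40.9% at 50 and 100 reads or more, 68.4% in coding sequence, and, in alternatives chosen after seeing the data, 64.9% in protein-coding models and 88.3% among calls with an RNA genotype. On chromosome 19, 75.1% became 65.8% at 100 reads or more, 64.2% with 1 call per gene, 79.9% in coding sequence, 80.4% in protein-coding models and 94.3% among calls with an RNA genotype. Homozygous exome calls read 0/1 in RNA went from 74.3% to 98.1% without the Ddhd1 to Bmp4 span, also chosen after seeing the data. The causes were not tested.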
